A study of Mus musculus with 8 samples.

Results

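The genes described here encode the lysosome of the liver: its proton pump, its hydrolases with other soluble lumen proteins, and 6 of its membrane proteins. They were taken from a fixed list of 49 symbols, of which 47 had a probe set (a group of array probes read as 1 value) annotated with that symbol alone, out of 22180 genes tested. For a gene with more than 1 such probe set, the one of highest mean over all arrays was used, and no filter on low values was applied. Atp6v0c and Glb1 had no such probe set and were not analysed here. Of the 47 genes, 15 belong to the proton pump and 32 to the other classes.

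Livers of 27-day-old C57BL/6N mice were profiled with 1 whole-transcript array per mouse, 4 knockout and 4 wild-type by their titles. Knockout mice had both copies of Sco1 floxed and 1 copy of a Cre transgene driven by the albumin promoter, so that the deletion is aimed at hepatocytes. SCO1 delivers copper within mitochondria to cytochrome c oxidase during its assembly. The titles give all 4 wild-type mice as Sco1fl/fl, but the genotype labels divide them. By these labels mice 1 and 3 carried Cre with 1 floxed Sco1 allele, and mice 2 and 4 carried no Cre and 2 floxed alleles. Titles and labels thus disagree for mice 1 and 3, and the control classes used below follow the labels. Every mouse therefore carried at least 1 floxed allele, and the labels give neither sex nor litter. They also do not say that the mice came from separate litters or days, so p-values measure the spread between these 8 livers.

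Lysosomes break down proteins, glycans, lipids and worn organelles that reach them by endocytosis and autophagy. The vacuolar ATPase (V-ATPase) acidifies them: its cytosolic V1 sector hydrolyses ATP and turns a rotor that drives protons through the V0 sector in the membrane. Many lysosomal genes carry an E-box in their promoters, part of the CLEAR element (coordinated lysosomal expression and regulation) that the transcription factors TFEB and TFE3 bind. In liver, hepatocytes and the resident macrophages, called Kupffer cells, are both rich in lysosomes, so whole-tissue RNA mixes the lysosomal transcripts of both, and more cells of a type cannot be told apart from more RNA per cell.

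Sco1 itself read 7.48 to 7.72 log2 units in the knockout mice and 7.84 to 8.19 in the wild-type mice. The groups did not overlap, but the difference of -0.41 ± 0.09 (SE) did not pass over all genes (adjusted p = 0.0633, limma with Benjamini-Hochberg adjustment). Array medians lay between 5.79 and 5.89. For 10 hepatocyte markers the log2 of the summed signal was 16.50 to 16.51 among knockout mice and 16.49 to 16.52 among wild-type mice. The arrays of both mice numbered 1 stood apart in the clock gene Dbp (9.66 and 9.86 against 6.87 to 7.33 elsewhere), and knockout mouse 4 had low Y-linked transcripts, with Uty at 7.23 against 8.48 to 8.83.

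Of the 47 lysosomal genes, 3 rose in the knockout livers and none fell (limma with Benjamini-Hochberg adjustment over 22180 genes, threshold 0.05). They were the cathepsin genes Ctsz and Ctsl and the membrane protein gene Cln3. That is 6.38% of the genes, against 0.433% of all genes called higher and 0.717% called lower. At an unadjusted p under 0.05, 19 lysosomal genes (40.4%) were higher and 2 (4.26%) lower, whereas 8.61% and 8.06% of all genes were. Knockout and wild-type values did not overlap for 13 genes higher in the knockout (27.7%) and for 3 lower (6.38%), beside 5.26% and 5.49% of all genes. Most differences were small: the median over the 47 genes was 0.12 log2 units, against 0.03 over all genes. Of the 47 genes 39 were above 0, beside 12676 of 22180 over all genes, and 19 lay within 0.1 of 0. All but 1 of the 47 were brighter than the median gene. Among such brighter genes the median difference was -0.02, and 4936 of 11090 were above 0. Of these brighter genes 6.65% were higher and 13.2% lower at an unadjusted p under 0.05.

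Ctsz, which encodes the carboxypeptidase cathepsin Z, read 12.47, 12.54, 12.58 and 12.58 log2 units in knockout mice 1 to 4. In wild-type mice 1 to 4 it read 12.08, 12.01, 11.92 and 11.96. The knockout values lay within 0.12 of each other, and all of them stood above every wild-type value. The rise was 0.55 ± 0.07 (SE, n = 4 each), or 1.46-fold (adjusted p = 0.00656, limma with Benjamini-Hochberg adjustment). It passed with any 1 of the 8 arrays left out, at adjusted p of 0.0152 to 0.0283. It did not pass when either control class was left out, at adjusted p of 0.0889 without the Cre controls and 0.134 without the Cre-free controls.

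Ctsl, the gene of the endopeptidase cathepsin L, read 12.75, 12.77, 12.74 and 12.91 in the knockout mice and 12.41, 12.45, 12.43 and 12.37 in the wild-type mice. Here too the groups were apart, with knockout mouse 4 the highest. Ctsl rose by 0.37 ± 0.07 (SE, adjusted p = 0.036). That call was lost with any 1 array left out, at adjusted p of 0.0645 to 0.11.

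Cln3 encodes a membrane protein of lysosomes and late endosomes whose loss causes juvenile Batten disease. It read 9.48, 9.20, 9.35 and 9.12 in the knockout mice and 8.96, 8.73, 8.68 and 8.76 in the wild-type mice, so that the lowest knockout mouse, number 4, stayed above the highest wild-type mouse, number 1. Cln3 rose by 0.50 ± 0.10 (SE), 1.42-fold (adjusted p = 0.0384). The call was kept without knockout mouse 4 or wild-type mouse 1 and lost without any 1 of the other 6 arrays, at adjusted p of up to 0.116. With 1 array left out, the count of lysosomal genes that rose dropped to 1 when that array was from knockout mouse 1 or 3 or from wild-type mouse 2, 3 or 4. It was 2 when knockout mouse 2 or 4 was omitted, and 4 when wild-type mouse 1 was. Calls dropped over all 22180 genes too, with 29 to 65 called higher in these fits against 96 with all arrays.

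**Figure D1:**
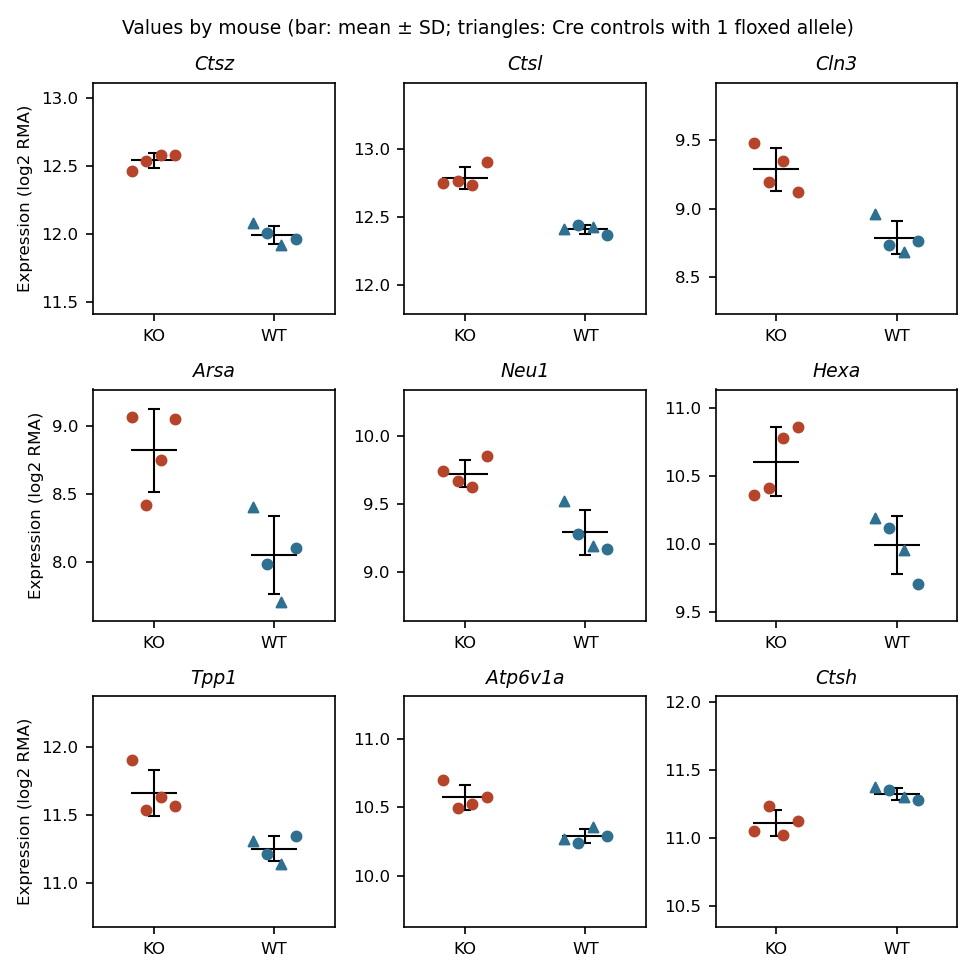
Log2 RMA values (vertical axes, each spanning 1.7 units) of 9 lysosomal genes in knockout (KO, red) and wild-type (WT, blue) livers. Each symbol is 1 mouse, in mouse order from left to right, triangles are wild-type mice with Cre and 1 floxed allele, and bars are the mean ± SD over 4 mice. Groups are apart for all 9 genes, with the knockout below the wild-type in Ctsh alone.

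The promoters of the 3 genes that rose are shown because they carry the E-box CACGTG to different degrees. The windows run from 250 bases before to 50 after the transcript start, 5′ to 3′ on the gene's strand (RefSeq, GRCm38.p6), with E-boxes in capitals, extended where the flanking bases continue the CLEAR element. Cln3 has 2 windows in the table, and the one that holds the motif is printed.
Cln3 (chr7:126583187-126583486, minus strand): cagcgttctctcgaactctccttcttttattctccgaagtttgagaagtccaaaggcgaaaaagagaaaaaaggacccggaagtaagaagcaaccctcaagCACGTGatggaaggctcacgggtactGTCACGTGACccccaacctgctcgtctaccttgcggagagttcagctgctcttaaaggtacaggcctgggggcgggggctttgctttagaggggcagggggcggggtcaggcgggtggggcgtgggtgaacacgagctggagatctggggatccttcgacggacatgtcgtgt
Ctsl (chr13:64370471-64370770, minus strand): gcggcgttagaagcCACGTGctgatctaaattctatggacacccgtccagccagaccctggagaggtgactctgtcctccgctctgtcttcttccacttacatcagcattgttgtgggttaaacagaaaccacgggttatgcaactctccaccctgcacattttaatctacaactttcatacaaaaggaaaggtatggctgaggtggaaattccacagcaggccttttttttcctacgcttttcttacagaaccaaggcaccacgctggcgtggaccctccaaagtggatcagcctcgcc
Ctsz (chr2:174438990-174439289, minus strand): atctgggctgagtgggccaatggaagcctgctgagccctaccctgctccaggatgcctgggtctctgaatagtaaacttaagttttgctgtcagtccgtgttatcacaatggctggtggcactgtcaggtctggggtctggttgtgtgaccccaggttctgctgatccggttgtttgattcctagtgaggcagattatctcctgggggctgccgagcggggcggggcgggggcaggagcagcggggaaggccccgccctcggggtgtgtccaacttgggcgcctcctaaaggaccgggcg
In the Cln3 window the capitals mark an E-box that begins at position -149 from the start, and a CLEAR palindrome of 10 bases around an E-box that begins at -121. The Ctsl window holds 1 E-box, which begins at -236. None lies in the window of Ctsz, the gene with the smallest adjusted p.

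Windows were found for 39 of the 49 listed genes. The windows of Ctsb, Ctsh, Galns, Asah1, Npc1, Atp6v0d2, Atp6v1b2, Atp6v1c1, Atp6v1g1 and Atp6v1h were not analysed here. The E-box CACGTG, which reads the same on both strands, was present for 17 of the 39 (43.6%), against 8.09% of the 27025 genes in the table and 7.15% of its 32851 windows. The longer TCACGTGA, which contains the E-box, was present for 8 of 39 (20.5%), against 1.12% of genes and 0.974% of windows. The CLEAR palindrome of 10 bases, which contains both, was found for Cln3 alone (2.56%), against 0.37% of genes and 0.326% of windows. These are matches of letters and not binding measurements. Beside Cln3, the genes with TCACGTGA (in capitals) are shown by 30 bases around their first match, to set their letters beside their differences.
Atp6v1a (chr16:44139373-44139402, minus strand): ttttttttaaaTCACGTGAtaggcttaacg
Atp6v0e (chr17:26676387-26676416, plus strand): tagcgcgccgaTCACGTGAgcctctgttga
Atp6v0d1 (chr8:105566050-105566079, minus strand): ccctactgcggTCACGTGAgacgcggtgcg
Mcoln1 (chr8:3500462-3500491, plus strand): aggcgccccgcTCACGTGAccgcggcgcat
Ctsa (chr2:164833749-164833778, plus strand): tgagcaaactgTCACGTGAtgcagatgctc
Ctsd (chr7:142387908-142387937, minus strand): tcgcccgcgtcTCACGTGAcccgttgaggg
Gla (chrX:134601215-134601244, minus strand): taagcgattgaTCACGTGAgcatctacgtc
The differences of these genes were 0.29 for Atp6v1a, 0.21 for Atp6v0e, 0.09 for Atp6v0d1, 0.27 for Mcoln1, 0.23 for Ctsa, 0.14 for Ctsd and -0.10 for Gla. Ctsa and Gla hold a further match in the same window. With Cln3, the 8 genes had a median difference of 0.22, 7 of them above 0 and 1 past the threshold. The 29 measured genes with a window but without TCACGTGA had a median of 0.11, with 23 above 0 and 2 past the threshold. By the hexamer alone, medians were 0.19 over 16 genes with CACGTG and 0.10 over 21 without it.

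Among the cathepsins, the proteases of the lysosome, 2 of 8 rose, none fell and 6 did not pass. Their median difference was 0.24, and 7 of 8 were above 0, beside 12676 of 22180 over all genes. Ctsb, a cysteine protease gene, read 12.76 to 12.90 in knockout and 12.51 to 12.68 in wild-type mice. The groups were apart, at a difference of 0.25 ± 0.07 (adjusted p = 0.129). Ctsa, a carboxypeptidase that also stabilises the sialidase NEU1, differed by 0.23 ± 0.09 with groups that overlapped. The aspartic protease gene Ctsd differed by 0.14 ± 0.07 without overlap, and Ctsf by 0.05 ± 0.07.

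Ctss and Ctsh departed from the other cathepsin genes. Ctss, which is typical of antigen-presenting cells, read 9.04, 9.37, 9.54 and 9.93 in knockout mice 1 to 4 and 9.05, 9.30, 8.95 and 8.87 in wild-type mice 1 to 4. Its knockout SD of 0.37 was the largest of all 47 genes, and knockout mouse 1 stood below wild-type mice 1 and 2. The difference of 0.42 ± 0.17 was similar in size to that of Ctsl and did not pass (adjusted p = 0.237). Ctsh, an aminopeptidase gene, lay in the opposite direction: 11.05, 11.24, 11.02 and 11.12 in the knockout mice against 11.37, 11.35, 11.30 and 11.28 in the wild-type mice. These groups were apart, at -0.22 ± 0.08 (adjusted p = 0.189), the most negative difference of the 47 genes.

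None of the 8 measured glycosidase genes passed, and their median difference was 0.09, with 5 above 0. At an unadjusted p under 0.05, 3 were higher (37.5%) and 1 was lower (12.5%), against 8.61% and 8.06% of all genes. Hexa, the alpha subunit of the hexosaminidase that degrades GM2 ganglioside, read 10.36, 10.41, 10.78 and 10.86 in the knockout mice and 10.19, 10.11, 9.96 and 9.71 in the wild-type mice. Knockout mice 3 and 4 were the highest, and the groups did not overlap. The difference was 0.61 ± 0.14 (SE), 1.53-fold, at adjusted p = 0.0603.

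Neu1, which encodes the sialidase that removes terminal sialic acids, read 9.75, 9.67, 9.62 and 9.85 against 9.52, 9.28, 9.19 and 9.17. Wild-type mouse 1 lay closest to the knockout mice. The difference was 0.43 ± 0.10 (SE) at adjusted p = 0.0565. Omitting wild-type mouse 1 brought it past the threshold (adjusted p = 0.0359), and omitting any other single array did not.

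Other glycosidase genes lay on both sides of 0. Gaa, the glycogen-degrading acid alpha-glucosidase, differed by 0.21 ± 0.09, the mannosidase gene Man2b1 by 0.11 ± 0.07 and the iduronidase gene Idua by 0.06 ± 0.09. The beta-glucuronidase gene Gusb read 8.39 to 8.63 in knockout and 8.68 to 8.82 in wild-type mice, at -0.20 ± 0.08 (adjusted p = 0.255). Gla, the alpha-galactosidase that clears globotriaosylceramide, also had groups that were apart, at -0.10 ± 0.07, and Naglu, which acts on heparan sulfate, overlapped at -0.09 ± 0.08.

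Of the 4 sulfatase genes none passed, all differences were above 0, and their median was 0.10. Arsa, which desulfates the myelin lipid sulfatide, had the largest difference of the 47 genes. It read 9.06, 8.42, 8.75 and 9.05 in the knockout mice and 8.40, 7.98, 7.71 and 8.11 in the wild-type mice. Knockout mouse 2 and wild-type mouse 1 nearly met, at 8.42 and 8.40. The difference of 0.77 ± 0.17 (SE), 1.71-fold, stood just outside the threshold (adjusted p = 0.0546), and was past it when knockout mouse 2 (adjusted p = 0.0383) or wild-type mouse 1 (adjusted p = 0.0473) was omitted. Sgsh, the heparan N-sulfatase, read 8.21, 8.10, 8.40 and 8.20 against 8.05, 8.14, 8.13 and 8.19. Its groups overlapped, with knockout mouse 3 the highest, at a difference of 0.10 ± 0.08 (adjusted p = 0.557), which was 0.04 with that mouse omitted. Galns differed by 0.10 ± 0.11 and the iduronate sulfatase gene Ids by 0.06 ± 0.10.

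The group of lipid-handling and other soluble proteins held 6 genes, none past the threshold, with a median of 0.06. Tpp1, a tripeptidyl peptidase whose loss causes another form of Batten disease, stood apart from the rest. It read 11.91, 11.54, 11.63 and 11.56 in the knockout mice and 11.31, 11.21, 11.14 and 11.34 in the wild-type mice, without overlap. The difference was 0.41 ± 0.10 (SE), 1.33-fold (adjusted p = 0.0671), and it did not pass with any 1 array left out. Ppt1, which removes palmitate from proteins, read 10.77, 10.70, 10.61 and 10.60 against 10.62, 10.59, 10.58 and 10.50. Knockout mice 3 and 4 lay within reach of wild-type mouse 1, and the difference was 0.10 ± 0.07 (adjusted p = 0.533), or 0.06 with knockout mouse 1 omitted. The cholesterol-binding Npc2 differed by 0.07 ± 0.10. For the saposin precursor Psap, the acid ceramidase gene Asah1 and the acid lipase gene Lipa, the differences were 0.05, 0.01 and -0.01. Their 95% intervals were -0.13 to 0.23, -0.18 to 0.21 and -0.16 to 0.15.

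Among the 6 membrane protein genes Cln3 rose and 5 did not pass, with a median difference of 0.09. Mcoln1, the calcium channel TRPML1 of the lysosomal membrane, read 10.85, 10.57, 10.87 and 10.87 in the knockout mice and 10.66, 10.52, 10.45 and 10.46 in the wild-type mice. Only knockout mouse 2 fell within the wild-type range. Its difference was 0.27 ± 0.09 (adjusted p = 0.18). The abundant glycoproteins of the lysosomal membrane differed little: Lamp1 by 0.12 ± 0.07, with groups that were apart, and Lamp2 by -0.01 ± 0.07, with a 95% interval of -0.17 to 0.15. Scarb2, the receptor that brings glucocerebrosidase to lysosomes, differed by 0.05 ± 0.09 and the cholesterol exporter Npc1 by 0.03 ± 0.11. A dimmer probe set of Npc1 gave -0.06.

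**Figure D2:**
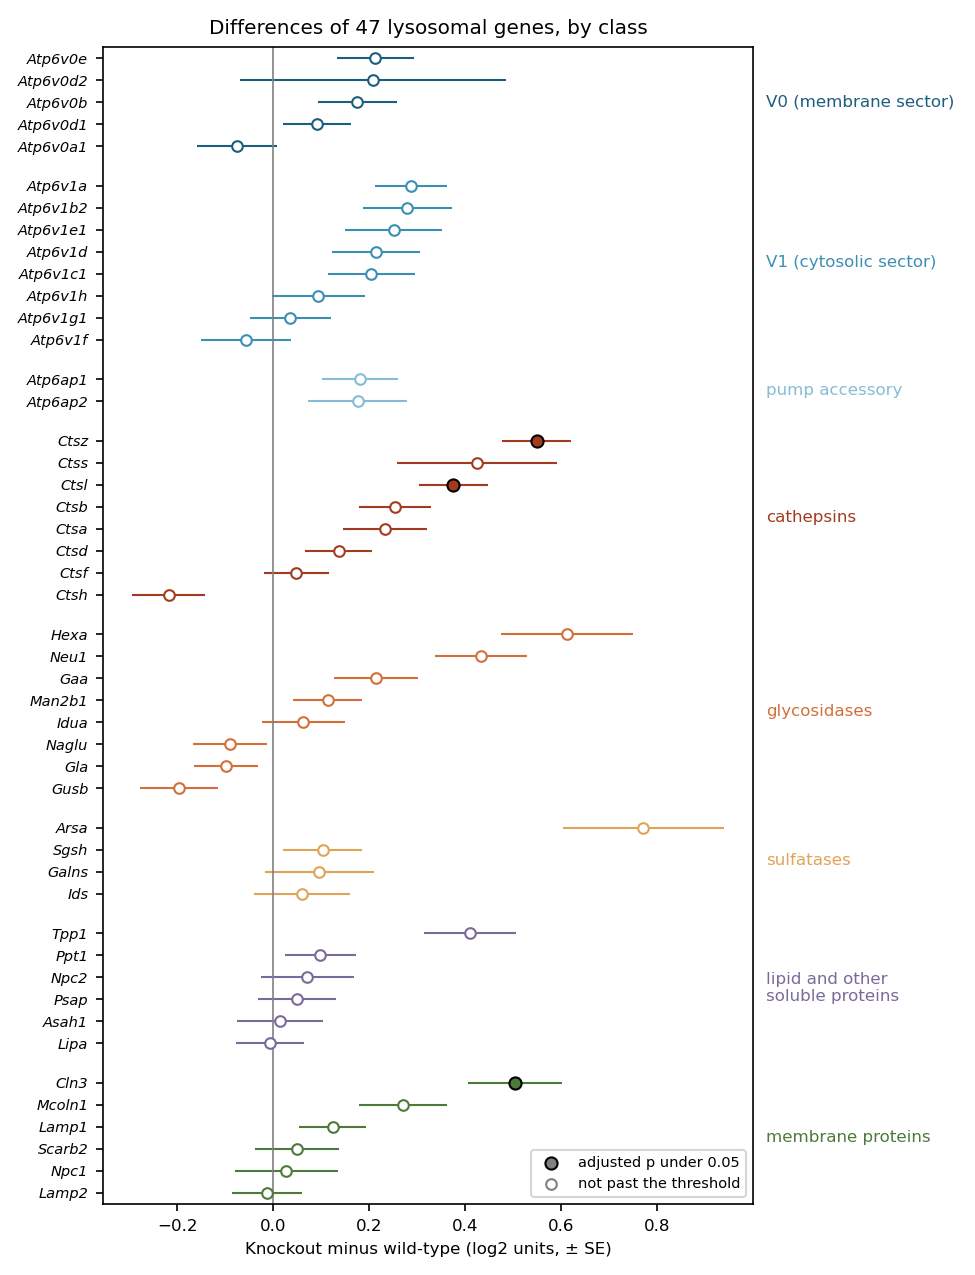
Knockout minus wild-type difference (horizontal axis, log2 units, ± limma SE, 4 mice per group) of 47 lysosomal genes, ordered by size within each class. Filled points passed the threshold (Ctsz, Ctsl and Cln3) and open points did not, and differences ran from -0.22 for Ctsh to 0.77 for Arsa.

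No gene of the proton pump passed, although 13 of 15 differences were above 0 and their median was 0.18. Over all genes 12676 of 22180 differences were above 0, with a median of 0.03. At an unadjusted p under 0.05, 7 pump genes (46.7%) were higher and none was lower, against 8.61% and 8.06% of all genes. In the V1 sector 5 of 8 genes were higher at that level, with a median of 0.21. Atp6v1a, the catalytic A subunit that hydrolyses ATP, read 10.70, 10.49, 10.53 and 10.58 in the knockout mice and 10.27, 10.24, 10.36 and 10.29 in the wild-type mice. The groups were apart, and the difference of 0.29 ± 0.08, 1.22-fold, had the smallest adjusted p of the pump (0.0967). Its partner in the catalytic ring, Atp6v1b2, read 10.50, 10.56, 10.70 and 10.86 against 10.35, 10.50, 10.32 and 10.32. Knockout mouse 1 met wild-type mouse 2 at 10.50, and the difference was 0.28 ± 0.09 (adjusted p = 0.175). A second, dimmer probe set of Atp6v1b2 gave 0.22.

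The peripheral stalk gene Atp6v1e1 differed by 0.25 ± 0.10, the rotor gene Atp6v1d by 0.21 ± 0.09 without overlap, and the regulatory subunit gene Atp6v1c1 by 0.20 ± 0.09. The remaining V1 genes stood closer to 0: Atp6v1h at 0.09 ± 0.10, the stalk gene Atp6v1g1 at 0.04 ± 0.08 and the rotor gene Atp6v1f at -0.06 ± 0.09. The dimmer probe sets of Atp6v1g1 lay at -0.08 and -0.11. Atp6v1f was the single gene of the 47 below the median level of all genes, with group means of 6.24 and 6.30.

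In the membrane sector V0, 4 of 5 measured genes had differences above 0 and the median was 0.18. Atp6v0e, a small subunit of the sector, read 10.43, 10.27, 10.39 and 10.33 in the knockout mice and 10.04, 10.28, 10.18 and 10.07 in the wild-type mice. Wild-type mouse 2 overlapped knockout mouse 2, and the difference was 0.21 ± 0.08 (adjusted p = 0.221). Atp6v0b, a proton-carrying subunit of the membrane ring, read 10.70, 10.84, 10.77 and 10.96 against 10.54, 10.75, 10.63 and 10.64, at 0.18 ± 0.08 (adjusted p = 0.317). The subunit gene Atp6v0d1, which couples the ring to the rotor, differed by 0.09 ± 0.07, and Atp6v0a1, one of the isoforms of the subunit that forms the proton path, by -0.07 ± 0.08.

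Atp6v0d2, an isoform of the coupling subunit known from osteoclasts and macrophages, had the largest SE of the 47 genes. It read 7.98, 8.35, 8.08 and 7.60 in the knockout mice and 8.26, 7.81, 8.26 and 6.85 in the wild-type mice. The wild-type SD was 0.66, and wild-type mouse 4 lay lowest of all. The difference of 0.21 ± 0.28 had a 95% interval of -0.40 to 0.82, which spans 0. Both accessory protein genes, Atp6ap1 and Atp6ap2, which aid assembly and trafficking of the pump, stood at 0.18. Atp6ap1 read 10.58, 10.74, 10.63 and 10.58 against 10.31, 10.50, 10.50 and 10.50, without overlap, at ± 0.08 (adjusted p = 0.279). Atp6ap2 read 10.29, 10.36, 10.28 and 10.68 against 10.23, 10.29, 10.31 and 10.09, and only knockout mouse 4 was far from the wild-type range (± 0.10, adjusted p = 0.411). Omitting knockout mouse 4 moved its difference to 0.08, and the Y-linked covariate moved it to 0.07.

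The 15 pump genes lay between -0.07 and 0.29, with none past the threshold and 3 with groups that were apart, all higher. The 32 hydrolase and membrane protein genes lay between -0.22 and 0.77, with a lower median (0.10) and 3 past the threshold. Their groups were apart for 10 higher and 3 lower genes. That is 20% higher and 0% lower for the pump, and 31.2% and 9.38% for the others, beside 5.26% and 5.49% of all genes. The medians were 0.18 and 0.10, and no test of their difference was run. The median of the pump was 0.13 with the Y-linked level as a covariate.

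Within the groups, the lysosomal genes varied more among knockout than among wild-type mice, with a median SD of 0.13 against 0.08 (0.14 against 0.12 over all genes). Measured from each gene's wild-type mean, the median over the 47 genes was 0.09, 0.12, 0.13 and 0.19 in knockout mice 1 to 4 and 0.05, 0.01, -0.04 and -0.04 in wild-type mice 1 to 4. Knockout mouse 4 was the highest knockout mouse for 25 of the 47 genes, and wild-type mouse 1 the highest wild-type mouse for 20. The pump showed the same leading mouse, with knockout mouse 4 highest for 8 of 15 genes and a median of 0.25, against 0.09 to 0.17 in the other knockout mice. Cln3 and Tpp1 were instead highest in knockout mouse 1, at 9.48 and 11.91. Counts of the leading mouse and medians by mouse were not made over all genes. They are therefore not shown to be particular to the lysosomal genes.

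**Figure D3:**
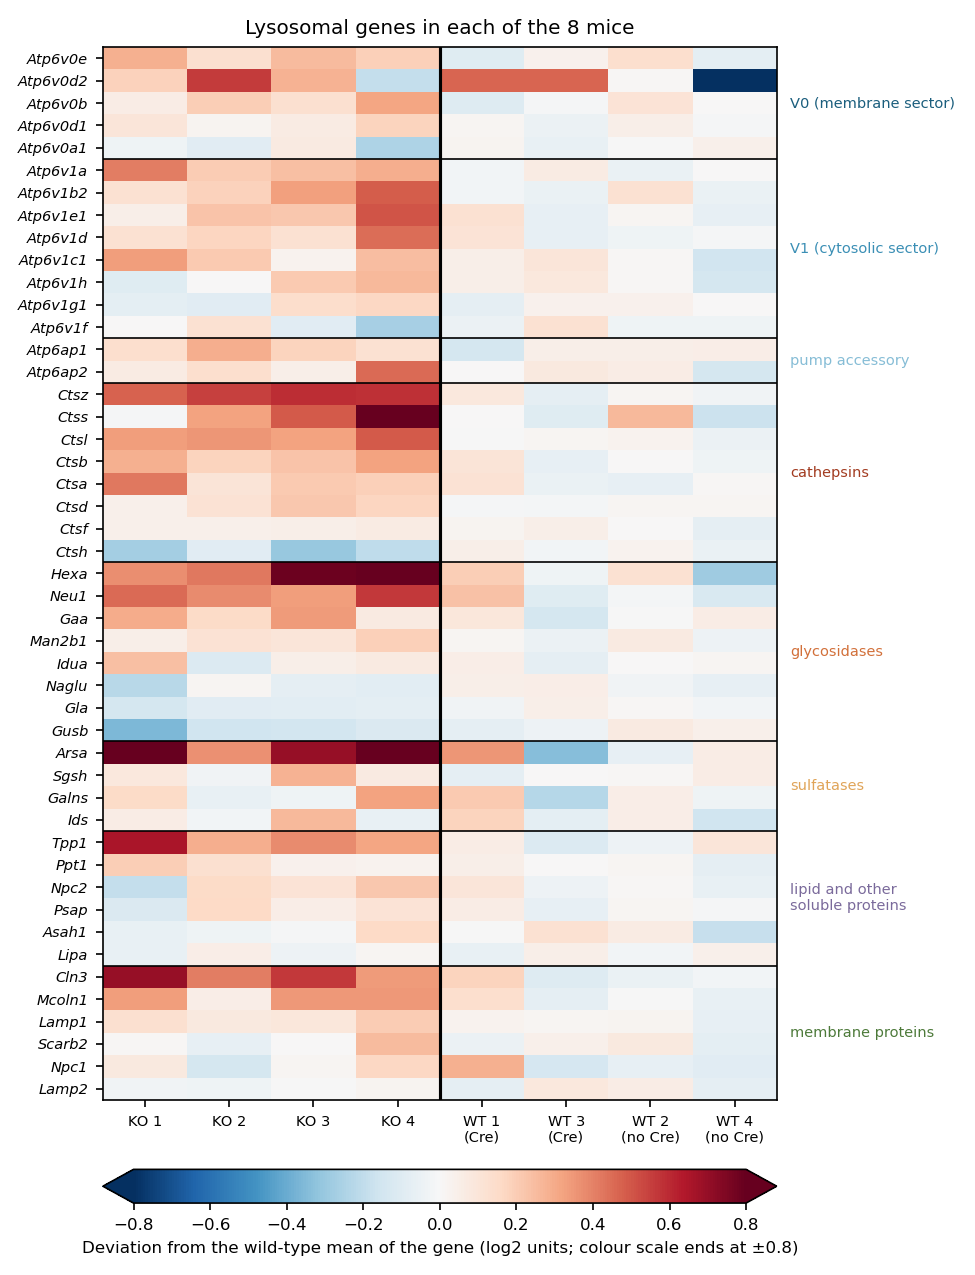
Deviation of each of 47 lysosomal genes (rows, grouped by class) from its wild-type mean (colour, log2 units, scale ending at ±0.8) in the 8 mice (columns, knockout on the left, then wild-type with and without Cre). Ctsz, Ctsl, Cln3, Hexa, Neu1, Arsa and Tpp1 are above the wild-type mean in all 4 knockout mice, and Ctsh, Gusb and Gla below it.

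A fit with 3 groups set the knockout against each control class of 2 mice. No lysosomal gene passed against Cre controls, where 0.131% of all genes were called, or against Cre-free controls, where 0.212% were (limma with Benjamini-Hochberg adjustment). At an unadjusted p under 0.05, 13 were higher and 1 lower in each of these comparisons, which share the knockout mice, while 11.8% of all genes differed from the Cre controls and 11.5% from the Cre-free controls. Ctsz lay 0.54 above Cre controls (adjusted p = 0.0781) and 0.56 above Cre-free controls (adjusted p = 0.0599), Ctsl 0.37 and 0.38, Cln3 0.47 and 0.54, and Arsa 0.77 and 0.78. Between the control classes no gene passed (0% of all genes), and 1 lysosomal gene, Atp6v0d2, had an unadjusted p under 0.05 (3.03% of all genes did), with 0.93 more in Cre controls. The knockout differed from Cre controls by -0.26 and from Cre-free controls by 0.67 in this gene. Smaller gaps between the comparisons were seen in other genes, such as Atp6v1c1 (0.13 against Cre controls and 0.28 against Cre-free controls), Atp6v0b (0.23 and 0.12) and Atp6v1h (0.03 and 0.16), which were named after their values were seen.

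Lysosomal genes outside the 49, together with 16 regulators, were counted from lists of 110 symbols. Of these 100 were measured: 7 rose, none fell and 93 did not pass. That is 7%, against 0.433% of all genes called higher and 0.717% called lower, and without the regulators 6 of 84 rose. The lists were chosen with earlier results of these data known, so these counts are not an independent check on the 47 genes. None of 9 other pump genes passed, with a median of 0.0018. At an unadjusted p under 0.05, 1 was higher (11.1%, against 8.61% of all genes). The smallest adjusted p among them were those of the stalk isoform gene Atp6v1g3 (0.28 ± 0.12, adjusted p = 0.265) and of Atp6v0a4 (adjusted p = 0.395). Of 34 other hydrolases and activators 3 rose, with a median of 0.04 over the list. Siae, which removes acetyl groups from sialic acids, read 11.14, 11.08, 11.07 and 11.16 in the knockout mice and 10.80, 10.63, 10.64 and 10.63 in the wild-type mice, a rise of 0.44 ± 0.07 (adjusted p = 0.0226). The fucosidase gene Fuca2 rose by 0.47 ± 0.08 (adjusted p = 0.03) and the dipeptidyl peptidase gene Dpp7 by 0.40 ± 0.08 (adjusted p = 0.0397), both without overlap. In the 8 fits that each omit an array, Siae passed in 3, Fuca2 in 2 and Dpp7 in 1, with adjusted p as high as 0.0736, 0.0911 and 0.115.

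Of 33 other membrane proteins 2 rose, the tetraspanin gene Cd63 by 1.37 ± 0.14 and Gpnmb by 1.23 ± 0.12. Of 8 sorting genes 1 rose, Cln6, by 1.19 ± 0.14, and of 16 regulators 1 rose, the GTPase gene Rragd, by 1.39 ± 0.18. Each of these 4 passed with any 1 array left out, and each exceeded the largest difference among the 47 genes. The factor genes Tfeb and Tfe3 (named after their values were seen) stood at 0.07 ± 0.07 and 0.01 ± 0.09.

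Macrophage markers were read beside these results. Of 22 markers of Kupffer cells and macrophages none passed. An unadjusted p under 0.05 was seen for 3, all higher (13.6%, against 8.61% of all genes). Differences were above 0 for 19 markers (for 12676 of 22180 genes in all), with a median of 0.15. Those of smallest adjusted p were Cd68 (0.36 ± 0.09, adjusted p = 0.0921), Mpeg1 (0.56 ± 0.20, adjusted p = 0.196) and C1qc (0.26 ± 0.10, adjusted p = 0.209). Cd68 also stands in the list of other lysosomal membrane proteins, so it is not a marker of macrophages alone. The summed signal of all 22 overlapped between groups, at 13.83 to 14.23 in knockout and 13.68 to 14.07 in wild-type mice (log2 of the sum). The Kupffer cell markers Clec4f and Timd4 were well above the median gene level in all mice, at differences of 0.09 ± 0.10 and 0.23 ± 0.17, whereas Itgam and Ccr2 were below it. Knockout mouse 4 and wild-type mouse 2 had the highest marker sum of their groups, and the same mice had the highest Ctss, at 9.93 and 9.30. Knockout mouse 4 was also the highest knockout mouse for 25 of the 47 genes. The wild-type mice had the same order by sum and by Ctss. Knockout mouse 2, however, had a higher sum than knockout mouse 3 (14.03 against 13.88) and a lower Ctss (9.37 against 9.54). Ctsz, shown beside the same sums, read 12.47 to 12.58 in the knockout mice and 11.92 to 12.08 in the wild-type mice. A list of 7 osteoclast-like and foam macrophage markers, which shares genes with the lysosomal lists, had sums that were apart, at 11.17 to 11.34 in knockout and 10.97 to 11.12 in wild-type mice. The part of macrophages was not tested for any gene, Ctss and Ctsz included.

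**Figure D4:**
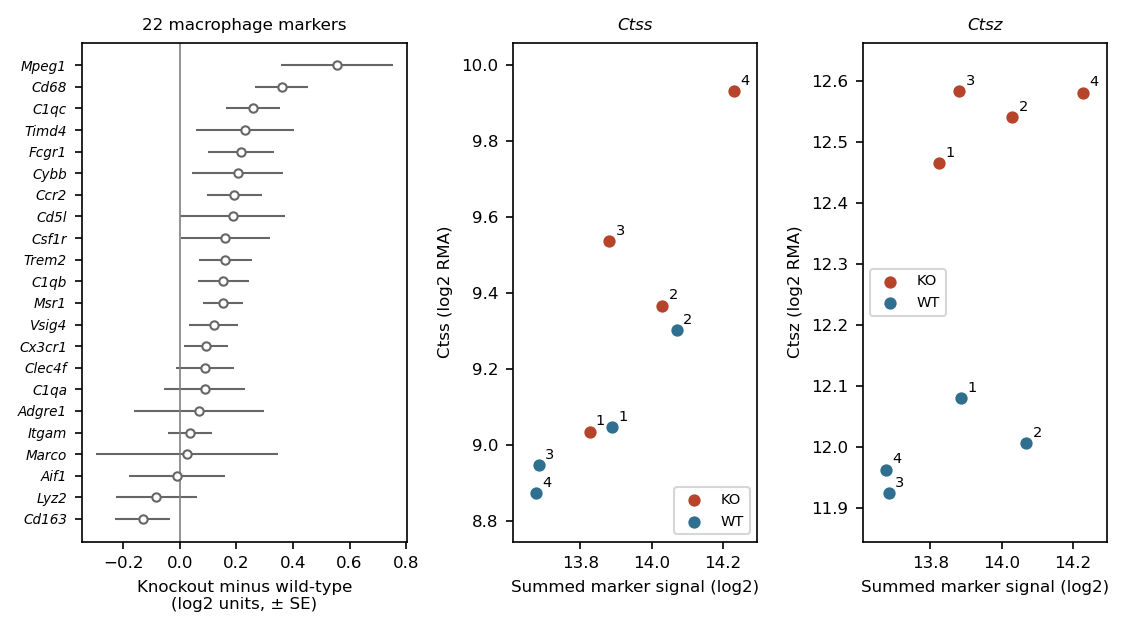
Left, knockout minus wild-type difference (log2 units, ± SE) of 22 macrophage marker genes, none past the threshold. Middle and right, Ctss and Ctsz (vertical axes, log2 RMA) against the summed signal of the 22 markers (horizontal axes, log2) in each mouse, numbered within knockout (KO, red) and wild-type (WT, blue). Ctss values and marker sums overlap between groups, Ctsz values do not, and the part of macrophages was not tested.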

How the data were processed

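The authors deposited log2 expression values per probe set, computed by RMA (background correction, quantile normalization and probe summary). The submitters' processing notes name oligo 1.24 for this. RMA compresses differences, most of all in dim probe sets. That the scale is log2 was inferred from the method and from the range, 1.28 to 13.88. Neither the chip definition nor a build is given in the sources used here. Of 39137 probe sets, 23521 had 1 gene symbol in the platform annotation.

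Knockout minus wild-type differences came from limma 3.58.1 under R 4.3.3, with group as the single term and two-sided tests. Benjamini-Hochberg adjustment ran over all 22180 genes. This step was tested on simulated data with independent noise for each gene. The pass mark for recovery was set at effects larger than any difference reported here. It therefore says nothing of the power to call differences of the sizes reported. Promoter windows came from RefSeq.

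The genes, their classes and all lists were chosen with earlier results of these data known. Values in all mice were given for genes past the threshold and for the 2 of smallest adjusted p in each class. Ctsb, Ctss, Ctsh, Gusb, Atp6v0d2, Clec4f and Timd4 were named beyond that rule, after their values were seen. Of the other lysosomal genes those past the threshold were named, else the 2 of smallest adjusted p, and of the macrophage markers the 3 of smallest adjusted p. Fits were repeated under 20 other settings. The number of arrays, 4 per group, limits the precision. Tables were made with Python 3.11.15 and pandas 2.3.3, figures with matplotlib 3.10.9.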

Additional observations from a re-analysis of the deposited data

Results flagged for a closer look

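In 7 of 94 groups of 4 values (47 genes in 2 groups), 1 mouse lay far from the other 3, with a gap to its neighbour, as a share of the group's range, above Dixon's critical value. Chance alone gives about 1 in 20 such groups. Atp6v1d was high in knockout mouse 4, at 10.11 against 9.78 to 9.83 (gap 0.847 of the range). Atp6v1f was high in wild-type mouse 3, at 6.42 against 6.25 to 6.26 (0.954). Atp6ap1 was low in wild-type mouse 1, at 10.31 against 10.50 (0.965). Gusb was low in knockout mouse 1, at 8.39 against 8.59 to 8.63 (0.842). Lamp1 was low in wild-type mouse 4, at 12.34 against 12.42 to 12.44 (0.845). Npc1 was high in wild-type mouse 1, at 11.27 against 10.85 to 10.92 (0.835). Mcoln1 was low in knockout mouse 2, at 10.57 against 10.85 to 10.87 (0.949).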

How the results depend on the processing

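Against 3 in the reported fit, the number of lysosomal genes that rose was 8 with a trended robust variance, 8 among genes above the median level, 7 among genes at 6 or more in at least 4 arrays, 6 with array weights and 8 at a false discovery threshold of 0.1. Calls over all genes moved too, from 96 higher and 159 lower to 159 and 300 with the trended variance and 131 and 245 with array weights. Under the level filters they were 123 higher and 319 lower of 11090 genes, and 150 and 346 of 13291 genes. At 0.1 they were 263 and 422. Among the lysosomal genes the number was 0 without the Cre controls (13 higher and 1 lower at an unadjusted p under 0.05), 0 without the Cre-free controls (12 higher and 0 lower), 1 without both mouse 1 arrays (an alternative chosen after seeing the data) and 1 to 4 with single arrays left out. Over all genes, 28 were called higher without both mouse 1 arrays and 29 to 65 with single arrays left out, against 96. The control fits have fewer samples, and over all genes they called only 7 higher and 9 lower, and 4 higher and 2 lower, so the 0 is not particular to the lysosomal genes. None fell under any of the 20 settings or at 0.1. The number that rose was 4 with renewed quantile normalization, 2 with the Y-linked level as a covariate, and with centring of arrays or averaging of probe sets 3. With arrays centred the calls over all genes were 86 higher and 271 lower, against 96 and 159 as reported. The median difference of the pump moved from 0.18 to 0.13 with the Y-linked level as a covariate. The cause was not tested for any of these. The medians stayed above 0 under all 20 settings, at 0.09 to 0.16 over all 47 genes, 0.13 to 0.21 for the pump and 0.07 to 0.14 for the other classes. The number of the 47 genes with a difference above 0 ranged from 35 to 41. The differences of Atp6v0d2, Atp6v1f, Atp6v1g1, Ids, Galns, Asah1, Lipa, Lamp2, Scarb2 and Npc1, none of them past the threshold, changed sign under at least 1 setting, and those of the other lysosomal genes kept it. Atp6v0d2 was above 0 under 18 of 20 settings.

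Deviations from the group means correlated at 0.27, -0.02, 0.03 and -0.10 between knockout and wild-type mice of the same number, 1 to 4. Between mice of unlike number the correlations ran from -0.15 to 0.12. The pair numbered 1 therefore stood above all unlike pairs, and the other same-number pairs lay within their range. With mouse number as a replicate block 3 genes rose, Ctsz, Cln3 and Arsa, and the median difference remained 0.12. The small number of arrays and the spread between mice limit what can be called: Arsa, at 0.77, had the largest difference and did not pass.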

Other observations

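Marker lists of other liver cells were read beside the lysosomal genes. All 8 measured lymphocyte markers had differences above 0, with a median of 0.19 and none past the threshold, and their summed signal was 9.47 to 9.73 in knockout and 9.31 to 9.37 in wild-type livers (log2 of the sum). Of these markers, Cd8a, Cd4, Cd79a, Ms4a1 and Ncr1 were below the median gene level. Differences above 0 were commoner among such dim genes: 12676 of 22180 over all genes, but 4936 of 11090 among those above the median level. Cd3e, part of the T cell receptor complex and the marker of smallest adjusted p, differed by 0.37 ± 0.12 (adjusted p = 0.155, limma with Benjamini-Hochberg adjustment). None of 10 hepatocyte, 8 stellate cell, 7 endothelial or 5 cholangiocyte markers passed, with medians of -0.02, -0.10, 0.06 and 0.12. Cholangiocyte differences ran from -0.29 to 0.14, with 2 below 0 and 1 lower at an unadjusted p under 0.05 (8.06% of all genes were). The summed cholangiocyte signal was 8.94 to 9.26 in knockout and 9.08 to 9.35 in wild-type livers. For endothelial markers it was 13.26 to 13.41 and 13.08 to 13.27. Of 7 markers of osteoclast-like and foam macrophages Gpnmb rose and 6 did not pass, with a median of 0.16. Gpnmb, Ctsk and Mmp12 had a mean over the 8 arrays below the median gene level. Trem2, a receptor of lipid-laden macrophages, stood at 0.16 ± 0.09, the osteoclast protease gene Ctsk at -0.09 ± 0.12 and Acp5, tartrate-resistant acid phosphatase, at 0.11 ± 0.08.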
